A study of Mus musculus with 9 samples.

Results

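The comparison set 3 libraries of a Cry1 knockdown against 3 control libraries of C2C12, a mouse myoblast cell line that leaves the cell cycle and fuses into myotubes when serum is changed. These 6 libraries, of 9 in the study, were chosen by their labels: Cry1 knockdown and control, each with 1 library from day 0, 1 from day 3 and 1 from day 5. The other 3 libraries, a Cry2 knockdown at the same days, entered the model and served where a test against them is named. PolyA RNA was sequenced and counted per gene. All cultures were kept in medium with 10% fetal bovine serum and moved at day 0 to medium with 5% horse serum and 1% insulin, transferrin and selenium, so a day counts time in differentiation medium. How the knockdown and its control were made, and whether either is a single clone, is not given in the sources used here. The days of a genotype are not replicate cultures. A p-value here therefore sets a difference against the disagreement between days, over all 9 libraries and with a spread partly shared between genes. Whatever set the 3 cultures of a genotype apart on every day, other than the knockdown, cannot be told apart from it.

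Cryptochromes are the proteins that, with the period proteins, shut off the CLOCK and BMAL1 transcription factors and so close the feedback loop of the circadian clock. CLOCK and BMAL1 bind the DNA word CACGTG, an E-box, near clock genes and their output genes. Muscle differentiation uses other E-boxes, bound by MyoD family factors together with MEF2 proteins, which switch on the genes of the contractile apparatus.

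Levels are given as CPM, counts scaled to library size and adjusted by the TMM method, always in the order day 0, day 3, day 5. Differences are log2 fold changes of the Cry1 knockdown over the control with their standard errors, from 3 libraries a side, and adjusted p-values are from edgeR's quasi-likelihood test with Benjamini-Hochberg adjustment over 12752 genes. A gene is said to have risen or fallen where that p was under 0.05. Total counts were 5666697 to 6412279 per library, and a count of 0 allowed up to 0.468 to 0.529 CPM, for counting error only. Of the 8 myoblast markers, which include Myod1, Myf5 and Des, all were measured, with a summed level of 4380 to 10116 CPM in the Cry1 knockdown and 3975 to 9649 CPM in the control. Blood markers summed to at most 4.55 CPM in any of the 6 libraries, with Adgre1, Cd3e and Hbb-bs at 0 throughout, and none of the 10 reached the level needed for a test. Osteoblast and cartilage markers summed at day 0 to 4057 CPM in the Cry1 knockdown, 3872 CPM of it from Spp1. In the control at day 0 they summed to 4562 CPM, 4383 CPM of it from Spp1. Neural and Schwann cell markers reached 206 and 253 CPM, mostly from Tubb3. Of all counts in the Cry1 knockdown, 0.921%, 1.64% and 1.92% came from mitochondrially encoded genes, beside 0.695%, 1.34% and 2.12% in the control.

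The targeted gene was lower at each day. Cry1 (ENSMUSG00000020038) spans 85131700 to 85185064 of chromosome 10 on the minus strand (mm10). Its level was 8.30, 6.65 and 8.14 CPM in the knockdown libraries and 20.5, 15.8 and 17.4 CPM in those of the control. Every knockdown library lay below every control library, as in 3.52% of all genes tested (3.13% had every knockdown library above). Cry1 fell by 1.22 on the log2 scale, with an SE of 0.22 and an adjusted p of 0.0277. The within-day log2 ratios were -1.29, -1.23 and -1.08. The size varied little between days, but the call was lost when any of the 6 libraries compared was left out, with adjusted p up to 0.135, and it held in the 3 fits that left out a Cry2 knockdown library. Cry2, the paralog, had 28.7, 37.1 and 68.1 CPM in the Cry1 knockdown and 19.2, 39.6 and 48.9 CPM in the control, and did not pass (0.31 ± 0.15, adjusted p = 0.294).

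Clock repressors and output factors moved in both directions. Of 14 such genes measured, 2 rose and 2 fell, Cry1 among the latter, against a background of 2.59% of all genes tested called in either direction (0.894% higher and 1.69% lower). The median log2 fold change of the 14 was 0.17, beside 0.01 for all genes tested. Per2, whose protein works with the cryptochromes in repression, had 29.5, 28.9 and 38.0 CPM in the Cry1 knockdown, against 7.77, 10.2 and 19.3 CPM in control cells. The groups did not overlap, and the control at day 5 was the nearest to the knockdown. Per2 rose by 1.44 ± 0.17 (adjusted p = 0.00806), with within-day ratios of 1.90, 1.48 and 0.97. This call held in 8 of the 9 fits that left out 1 library, and without the day 3 Cry1 knockdown library the adjusted p was 0.0563. Set directly against the Cry2 knockdown, Per2 was also higher in the Cry1 knockdown (1.25 ± 0.17, adjusted p = 0.00545), in a contrast where 7.9% of all genes passed (3.65% higher and 4.25% lower).

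Tef, a PAR bZIP transcription factor that carries clock output, had 148, 229 and 295 CPM in the Cry1 knockdown and 92.9, 144 and 259 CPM in the control. Levels climbed with the days in both genotypes, so the groups overlapped across days while the knockdown was higher within each. It rose by 0.51 ± 0.10 (adjusted p = 0.0392). Nr1d1, which encodes the nuclear receptor REV-ERB alpha that represses Bmal1, went the other way. It had 43.1, 54.0 and 70.2 CPM in the Cry1 knockdown against 57.1, 94.2 and 94.4 CPM in the control (-0.55 ± 0.12, adjusted p = 0.0497). Both calls were near the threshold, and each held in 1 of the 9 fits without a library, with adjusted p up to 0.186 for Tef and 0.224 for Nr1d1. Per1 (40.5, 43.7 and 49.2 CPM against 33.2, 34.9 and 38.2 CPM) and Per3 (17.8, 30.4 and 31.3 CPM against 12.8, 19.98 and 30.8 CPM) were higher at each day without passing (adjusted p = 0.118 and 0.262). Among 14 clock activators and regulators, 1 rose, beside 0.894% of all genes tested. That was Prkaa2, the catalytic subunit of AMP kinase that phosphorylates CRY1, with 3.56, 35.1 and 44.6 CPM against 1.47, 13.9 and 24.5 CPM (1.09 ± 0.21, adjusted p = 0.0346). The call held in 2 of the 9 fits, with adjusted p up to 0.197, and was lost without any 1 of the 6 libraries compared.

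**Figure D1:**
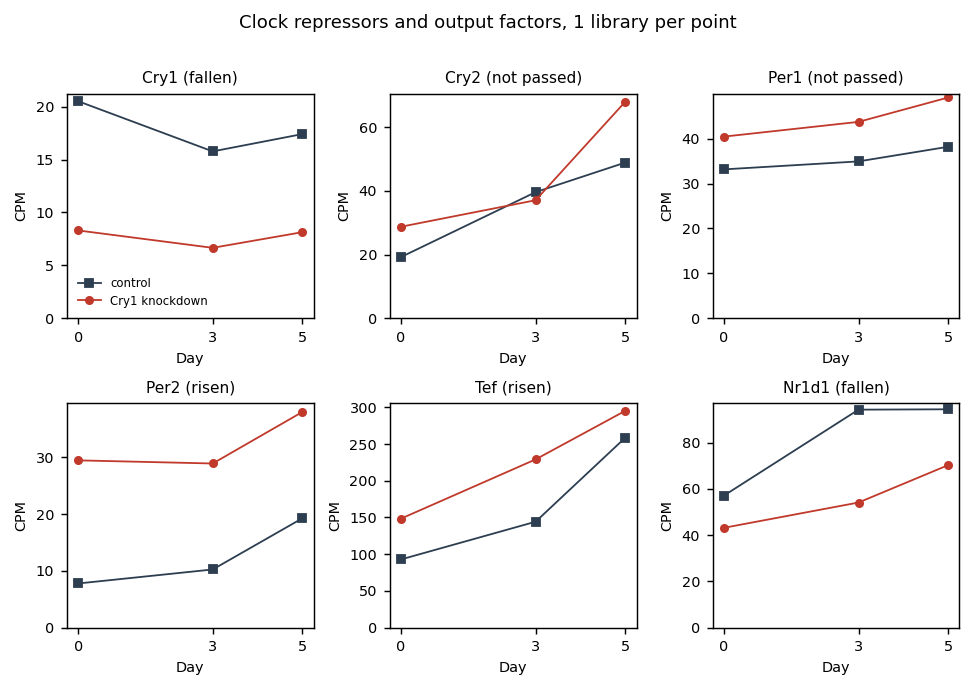
CPM (vertical axis, from 0) of 6 clock genes by day of differentiation (horizontal axis), with 1 library per point, circles for the Cry1 knockdown and squares for the control, joined by lines for each genotype. Cry1 and Nr1d1 are lower and Per1, Per2 and Tef higher in the knockdown at each day, whereas Cry2 crosses over at day 3.

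The promoters of Cry1 and Tef are shown because both genes changed and both hold the clock E-box. They were picked for holding it, so a link between the E-box and the change was not tested. No promoter of Per2 was available, and those of Nr1d1 and Prkaa2 are not shown. The sequences are RefSeq's for GRCm38.p6 (mm10), from 250 bases before to 50 after the start, read 5' to 3' on the gene's strand. Capitals mark the clock word CACGTG and a pair of words that MyoD family factors can bind. One of those is CAGCTG. The other is CACCTG, which on the opposite strand reads CAGGTG. The search covered both strands, and no word overlaps another in the windows shown. Cry1 (chr10:85185005-85185304, minus strand) holds CACGTG 60 bases before its start. Tef has a pair of start sites in the table, at chr15:81802423-81802722 and chr15:81811164-81811463 on the plus strand, with CACGTG 127 and 138 bases before the start.
Cry1: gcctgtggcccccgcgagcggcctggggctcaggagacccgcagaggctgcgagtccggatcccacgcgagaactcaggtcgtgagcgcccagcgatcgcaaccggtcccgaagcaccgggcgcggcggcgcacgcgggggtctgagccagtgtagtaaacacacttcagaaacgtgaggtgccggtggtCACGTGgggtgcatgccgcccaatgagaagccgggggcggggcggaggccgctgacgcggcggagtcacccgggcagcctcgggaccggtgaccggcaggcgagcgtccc
Tef, upstream start: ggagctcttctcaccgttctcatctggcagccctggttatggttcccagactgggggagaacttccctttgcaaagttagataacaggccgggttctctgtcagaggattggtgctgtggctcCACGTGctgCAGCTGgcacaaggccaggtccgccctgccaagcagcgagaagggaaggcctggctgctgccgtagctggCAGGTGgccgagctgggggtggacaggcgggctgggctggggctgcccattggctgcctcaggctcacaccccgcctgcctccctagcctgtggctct
Tef, downstream start: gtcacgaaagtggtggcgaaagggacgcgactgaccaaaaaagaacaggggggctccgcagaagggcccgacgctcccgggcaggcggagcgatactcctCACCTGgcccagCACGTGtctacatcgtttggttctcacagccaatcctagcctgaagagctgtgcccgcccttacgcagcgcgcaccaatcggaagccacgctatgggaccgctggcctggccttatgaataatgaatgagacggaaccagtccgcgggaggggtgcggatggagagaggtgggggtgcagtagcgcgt
Of all 32851 promoters in the table, 7.15% hold CACGTG and 32.9% hold one of the muscle words in the same window. A match is a string of letters and shows no binding. Promoters were found for 73.7% of the risen genes, 79.2% of the fallen genes and 73.0% of all genes tested, below the 80% needed, so a comparison of motif shares between these sets is void and none is given.

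Tmem176a and Tmem176b, neighbouring genes for membrane proteins on chromosome 6, both rose. Tmem176a, on the plus strand (48840919 to 48847071), had 3.11, 5.82 and 3.71 CPM in the Cry1 knockdown and 0.293, 0.840 and 0.371 CPM in the control. Its control levels at day 0 and day 5 were within the reach of a count of 0, so the size of its fold is uncertain. Tmem176b, on the minus strand (48833818 to 48841496), was at 5.63, 10.8 and 6.01 CPM, against 2.35, 1.51 and 1.11 CPM in the control. For each gene, the knockdown libraries were all above the control libraries, and the levels were highest at day 3 in the knockdown. The rises were 3.04 ± 0.48 (adjusted p = 0.0190) and 2.11 ± 0.37 (adjusted p = 0.0244), held in 4 and 5 of the 9 fits without a library, with adjusted p up to 0.126 and 0.145. Against the Cry2 knockdown, the differences were 2.84 ± 0.48 (adjusted p = 0.0115) and 2.80 ± 0.40 (adjusted p = 0.00598). The genes start head to head, and their annotated spans overlap by 578 bases, introns included. Exon bases that lie in an exon of another gene make up 2.13% of those of Tmem176a and 3.42% of those of Tmem176b. With counts from a kit that does not keep strand, reads from the shared bases cannot be assigned to either. The first start windows of the pair are shown because 155 of their 300 bases are the same DNA read from opposite strands (Tmem176a chr6:48841233-48841532, plus, and Tmem176b chr6:48841088-48841387, minus), with the muscle words in capitals.
Tmem176a: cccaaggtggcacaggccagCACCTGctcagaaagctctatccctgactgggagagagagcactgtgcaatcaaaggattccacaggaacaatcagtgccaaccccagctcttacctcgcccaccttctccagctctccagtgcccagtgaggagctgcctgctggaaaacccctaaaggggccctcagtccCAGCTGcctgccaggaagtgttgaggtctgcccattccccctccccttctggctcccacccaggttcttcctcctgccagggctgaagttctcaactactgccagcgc
Tmem176b: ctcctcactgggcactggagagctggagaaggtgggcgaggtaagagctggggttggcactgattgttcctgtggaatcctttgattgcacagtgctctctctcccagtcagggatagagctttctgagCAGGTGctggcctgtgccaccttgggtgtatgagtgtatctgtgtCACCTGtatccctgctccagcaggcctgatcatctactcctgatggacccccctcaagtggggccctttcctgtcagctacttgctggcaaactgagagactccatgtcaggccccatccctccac
Neither window holds CACGTG. The series title also names cyclin D1 and Bclaf1, and neither passed here. Ccnd1, the cyclin of early G1, had 237, 55.7 and 35.9 CPM in the Cry1 knockdown and 241, 74.4 and 30.4 CPM in the control (-0.10 ± 0.24, adjusted p = 0.864). Bclaf1, an RNA-binding protein gene, had 239, 149 and 158 CPM against 199, 131 and 143 CPM (0.19 ± 0.07, adjusted p = 0.180).

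Over all genes, 114 rose and 216 fell, and 6691 of 12752 had a positive fold change. Rises were fewer but larger. The median log2 fold change was 0.88 among the risen genes and -0.64 among the fallen, 49 genes rose by at least 1 on the log2 scale against 42 that fell by at least 1, and 19 rose by at least 2 against 5 that fell by at least 2. The risen genes were of lower abundance, with a median of 23.7 CPM, beside 47.7 CPM for the fallen and 30.5 CPM for all tested. Of the 330 calls, 328 had the same direction at each of the 3 days. The test sets a difference against the disagreement between days, so this agreement is largely a condition of a call and adds no support to it. The number of calls depended on single libraries. Without the day 3 Cry1 knockdown library, 10 genes rose and 17 fell. Omitting its day 0 library left 47 risen and 61 fallen, and omitting its day 5 library 56 and 69. Leaving out the control library of day 0, 3 or 5 gave 25, 19 or 16 risen and 57, 52 or 32 fallen. Leaving out a Cry2 knockdown library, which lies on neither side of the comparison, gave 68 to 137 risen and 137 to 229 fallen. The number of these 9 fits in which a single gene kept its call is therefore given with the genes described below.

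The 17 genes called in each of the 9 fits comprised 4 that rose (Igfn1, Mybpc2, Atp9a and 1 unnamed gene model) and 13 that fell (among them Nras, Axl, Pcgf3, Shc1, Peli2, Dcn, Dpt, Glrb, Emp1, Krt80, Ncoa4 and Rab5b). Of these, Atp9a, Pcgf3, Shc1, Krt80, Ncoa4 and Rab5b are named after their values were seen. Nras encodes a small GTPase that relays growth factor signals to the MAP kinases. It had 62.4, 57.5 and 48.1 CPM in the Cry1 knockdown and 174, 148 and 128 CPM in the control. Axl, the receptor tyrosine kinase for GAS6, had 182, 111 and 117 CPM against 588, 344 and 378 CPM. Neither gene came near to overlap between the groups. Nras fell by 1.42 on the log2 scale (SE 0.07) and Axl by 1.67 (SE 0.08), each with an adjusted p of 6.22e-05 and of at most 0.0025 in the fits without a library. Their within-day ratios were -1.47, -1.36 and -1.41 for Nras and -1.69, -1.63 and -1.69 for Axl. In the Cry2 knockdown, Nras had 160, 145 and 124 CPM and Axl 561, 307 and 302 CPM, and the Cry1 knockdown was below it by -1.35 ± 0.07 and -1.49 ± 0.08 (adjusted p = 0.000138 for each).

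Shc1, the adaptor that couples receptor tyrosine kinases to Ras, had 80.6, 75.8 and 79.6 CPM against 184, 152 and 160 CPM in the control. It fell by 1.07 on the log2 scale (SE 0.09, adjusted p = 0.00176), and 12.9% of its transcript's 50-base words occur in other genes. Emp1, a tetraspan membrane protein gene, had 359, 274 and 168 CPM against 951, 631 and 447 CPM (-1.34 ± 0.16, adjusted p = 0.00806). In neither Shc1 nor Emp1 did the knockdown and control libraries overlap, and Emp1 declined over time in both genotypes. Pcgf3, a Polycomb RING finger gene, had 57.8, 67.9 and 86.5 CPM against 123, 160 and 170 CPM (-1.10 ± 0.08, adjusted p = 0.000721). Peli2, a ubiquitin ligase gene of interleukin signalling, and Glrb, the beta subunit of the glycine receptor, fell with fitted values of -1.41 ± 0.13 and -1.50 ± 0.15 (adjusted p = 0.00419 and 0.00515). Both increased with differentiation in each genotype, Peli2 to 32.0 CPM in the knockdown and 77.1 CPM in the control at day 5. Krt80, Ncoa4 and Rab5b fell by -1.03, -0.72 and -0.77 with adjusted p of 0.00806, 0.00785 and 0.00805. The 1 named riser outside muscle, Atp9a, a phospholipid flippase gene, had 4.001, 32.4 and 24.4 CPM against 1.17, 10.2 and 6.86 CPM (1.73 ± 0.18, adjusted p = 0.0053).

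**Figure D2:**
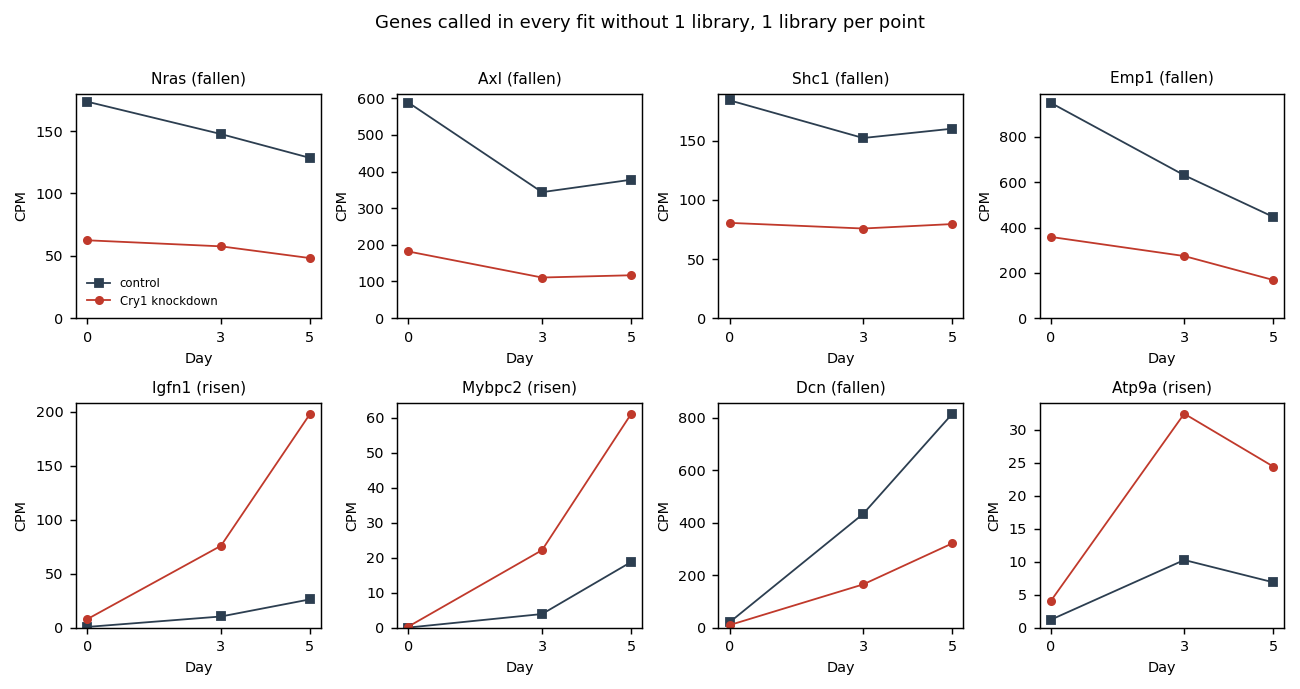
CPM (vertical axis, from 0) by day (horizontal axis) of 8 of the 17 genes that were called in each of the 9 fits without 1 library, with 1 library per point, circles for the Cry1 knockdown and squares for the control. Nras, Axl, Shc1, Emp1 and Dcn are lower and Igfn1, Mybpc2 and Atp9a higher in the knockdown at each day.

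The largest rises were mostly low-abundance genes that came on at days 3 and 5. Wif1, a secreted Wnt inhibitor, had 0.148, 12.0 and 8.31 CPM in the Cry1 knockdown and 0, 0.336 and 1.30 CPM in the control (3.61 ± 0.49, adjusted p = 0.0130). Frem2, an extracellular matrix protein of basement membranes, had 1.19, 10.8 and 16.8 CPM against 0.147, 0.504 and 2.78 CPM (3.18 ± 0.45, adjusted p = 0.0138). Fgf13, a fibroblast growth factor homologue that stays in the cell and binds sodium channels, had 0.148, 5.49 and 12.4 CPM against 0, 0.336 and 1.85 CPM (3.12 ± 0.44, adjusted p = 0.0135). At day 0, Wif1 and Fgf13 were within the reach of a count of 0 in both genotypes, so their folds rest on days 3 and 5. Their control levels at day 3 were also within that reach, so the size of these folds is uncertain. The calls held in 7, 6 and 6 of the 9 fits, with adjusted p up to 0.112, 0.0794 and 0.0796. Iqsec3, an exchange factor for ARF GTPases, differed in its time course, with 13.0, 9.65 and 2.48 CPM against 0.440, 2.18 and 0.371 CPM (3.07 ± 0.53, adjusted p = 0.0249, held in 5 fits). Its control levels at day 0 and day 5 were within the reach of a count of 0. The largest falls were Aspn, described with the matrix genes, and Add2, the beta adducin of the membrane skeleton, with 22.4, 1.497 and 1.59 CPM against 62.2, 18.6 and 6.67 CPM (-2.04 ± 0.30, adjusted p = 0.0148, held in 8 fits).

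**Figure D3:**
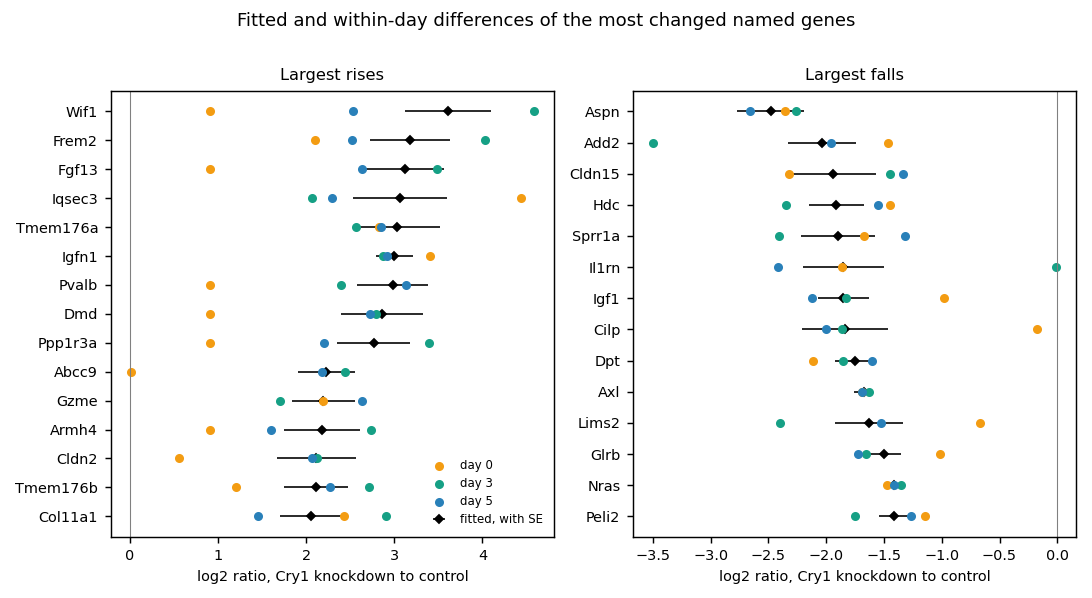
Log2 ratio of the Cry1 knockdown to the control (horizontal axis) for the 15 largest rises and 14 of the 15 largest falls that passed, had a mean of at least 2 CPM over the 6 libraries and kept one direction over the days. Diamonds with bars are fitted values with SE, and coloured points are the ratios within day 0, 3 and 5 with a prior count of 1. The 3 days of Axl, Nras and Igfn1 lie close together, whereas Wif1 runs from 0.90 at day 0 to 4.58 at day 3. On both of those days its control level was within the reach of a count of 0.

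Myogenic regulators as a list had a fitted median of 0.07, near that of all genes, but stood higher at day 0. Their within-day medians were 0.32, 0.08 and 0.02, with 13, 9 and 9 of 16 genes higher. Over all genes these medians were 0.02, -0.01 and 0.02. This difference between days carries no test. Of 16 members 2 rose, beside 0.894% of all genes tested. Mef2c, the MEF2 factor that works beside MyoD family proteins at muscle promoters, had 28.5, 343 and 633 CPM in the Cry1 knockdown and 8.80, 119 and 391 CPM in the control. It was higher within each day, and the knockdown at day 3 lay just under the control at day 5. The rise was 1.23 ± 0.19 (adjusted p = 0.0190), held in 5 of the 9 fits, with adjusted p up to 0.108. Pax7, which marks satellite cells, the muscle stem cells, had 13.2, 15.96 and 8.67 CPM against 6.01, 10.2 and 4.08 CPM (0.92 ± 0.20, adjusted p = 0.0487), a call that held in 1 fit. Msc, also called MyoR, a bHLH repressor of MyoD, had 9.34, 5.99 and 1.59 CPM against 18.3, 11.1 and 7.79 CPM (-1.21 ± 0.24, adjusted p = 0.0392). That call held in none of the 9 fits, with adjusted p up to 0.138, and 21.2% of the exon bases of Msc overlap another gene. Smyd1, a muscle methyltransferase, had 34.5, 261 and 244 CPM against 11.9, 163 and 178 CPM without passing (0.82 ± 0.19, adjusted p = 0.0582). Myogenin is taken up with the change over differentiation.

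Most sarcomere genes had positive differences in the Cry1 knockdown, although few passed singly. Of 17 thick filament genes measured, all 17 had a positive fold change and 3 rose, with a median of 0.83. Of 22 thin filament and light chain genes, 21 were positive and 1 rose (median 0.68). Of 29 titin, Z-disc and assembly genes, 27 were positive and 3 rose (median 0.54). None fell in these 3 lists. Over all genes tested, 6691 of 12752 were positive and 0.894% rose. The within-day medians were 1.45, 1.13 and 0.41 for the thick filament list, 1.20, 0.63 and 0.17 for the thin filament list and 0.90, 0.68 and 0.23 for the titin and Z-disc list, beside 0.02, -0.01 and 0.02 for all genes. The middle gene at day 0 was Mybpc2 in the thick filament list and Hspb3 in the titin and Z-disc list, both at 0 CPM in the control, so the prior count sets those 2 values. Over members with a mean above 3 counts in the day 0 libraries, 16 of 17, 21 of 22 and 25 of 29, the medians were 1.44, 1.12 and 0.36, 1.25, 0.62 and 0.16, and 0.97, 0.53 and 0.18. With a prior count of 5 the day 0 medians were 1.20, 1.06 and 0.50. Day 0 was above day 5 in each list under each of these settings, a difference with no test. Genes of one program move together, so these counts are descriptions and carry no test. More myotubes and more RNA per myotube cannot be told apart in bulk RNA. The summed myoblast markers were 4380, 9427 and 10116 CPM in the Cry1 knockdown against 3975, 9649 and 9583 CPM in the control, higher at day 0 and day 5 and lower at day 3.

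**Figure D4:**
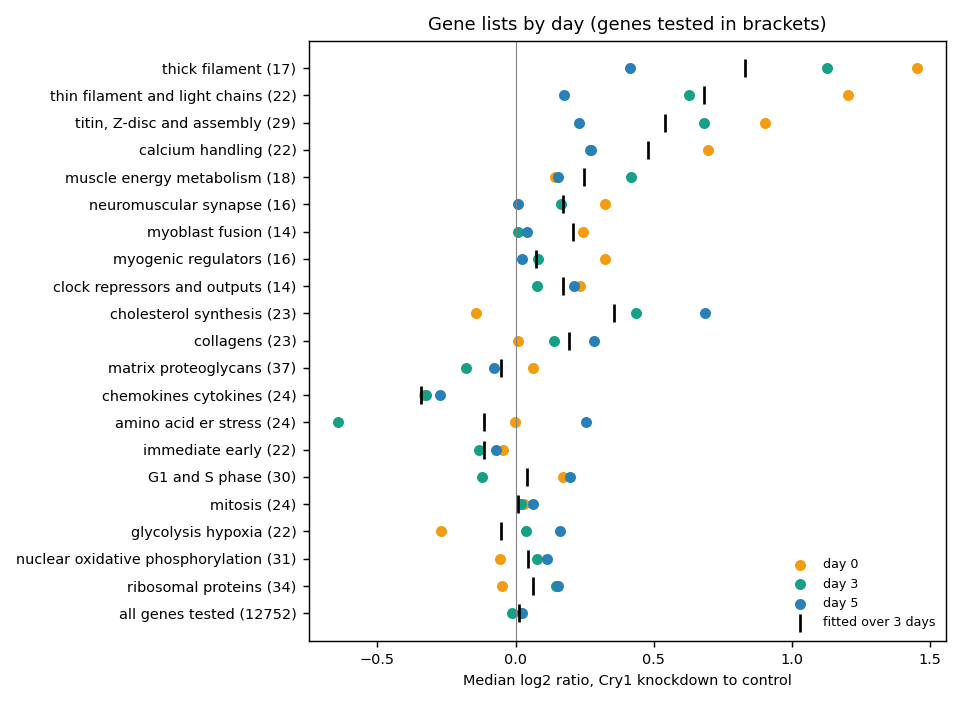
Median log2 ratio of the Cry1 knockdown to the control (horizontal axis) for 20 gene lists and all genes tested, with the number of genes tested in brackets. Coloured points are within-day medians and black ticks the medians of the fitted values. In the 3 sarcomere lists at the top the day 0 point lies to the right of the day 5 point, with a day 0 value that the prior count sets in the thick filament and the titin lists. The cholesterol list steps up from -0.14 to 0.68, and the cell cycle, ribosomal and respiratory lists lie near 0.

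Igfn1, an immunoglobulin-domain protein of the Z-disc region, led these lists. It had 7.85, 75.8 and 198 CPM in the Cry1 knockdown and 0.587, 10.2 and 26.1 CPM in the control, and rose by 3.00 ± 0.21 (adjusted p = 0.000721, at most 0.0150 in the fits without a library). The knockdown was about as far above the control at each day, at 3.41, 2.87 and 2.91. In the Cry2 knockdown it had 0.485, 15.7 and 55.0 CPM, below the Cry1 knockdown (2.15 ± 0.20, adjusted p = 0.00143). Mybpc2, the fast myosin-binding protein C, had 0.296, 22.1 and 61.0 CPM against 0, 3.86 and 18.7 CPM (1.998 ± 0.22, adjusted p = 0.00705). Its day 0 levels were within the reach of a count of 0 in both genotypes. The slow myosin heavy chains Myh7 (14.4, 161 and 319 CPM against 4.99, 56.4 and 240 CPM) and Myh7b (1.33, 27.9 and 31.8 CPM against 0.440, 10.7 and 17.1 CPM) rose by 1.05 ± 0.21 and 1.15 ± 0.21 (adjusted p = 0.0392 and 0.0327). These held in 1 and 3 of the 9 fits, with adjusted p up to 0.179 and 0.148, and 28.2% of the 50-base words of Myh7 recur in other genes, so its reads may be split.

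Actn3, the fast-fibre alpha-actinin of the Z-disc, had 331, 720 and 878 CPM against 224, 532 and 550 CPM (0.56 ± 0.08, adjusted p = 0.0162). Nrap, a scaffold of assembling myofibrils, had 26.8, 136 and 332 CPM against 11.4, 79.8 and 246 CPM (0.75 ± 0.15, adjusted p = 0.0389), and Obsl1, obscurin-like 1, rose by 0.50 ± 0.10 (adjusted p = 0.0447). Pdlim3, the actinin-associated LIM protein, had 229, 510 and 689 CPM against 133, 333 and 394 CPM (0.73 ± 0.10, adjusted p = 0.0120). All 4 genes were higher at days 3 and 5 than at day 0 in both genotypes. The calls of Actn3, Nrap, Obsl1 and Pdlim3 held in 5, 3, 0 and 6 of the 9 fits. The abundant members Myh8 (6.52, 245 and 504 CPM against 1.17, 69.0 and 291 CPM), Actn2 (4.45, 455 and 438 CPM against 1.61, 149 and 323 CPM) and Myl1 (106, 1933 and 2496 CPM against 31.5, 1008 and 1922 CPM) were higher at each day and did not pass. Their adjusted p-values were 0.0535, 0.0576 and 0.0798.

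Most genes of calcium release and storage also had positive differences. Of 22 measured, 18 were positive and 3 rose, beside 6691 of 12752 positive and 0.894% risen over all genes. The list had a median of 0.48 and within-day medians of 0.70, 0.27 and 0.27 (0.45 at day 0 with a prior count of 5). Trdn, triadin, which anchors calsequestrin to the ryanodine receptor, had 1.63, 28.4 and 61.7 CPM against 0.587, 8.06 and 22.2 CPM (1.63 ± 0.19, adjusted p = 0.00805). Pvalb, the calcium buffer of fast fibres, had 0.148, 5.16 and 15.9 CPM against 0, 0.840 and 1.67 CPM (2.98 ± 0.41, adjusted p = 0.0130). Its day 0 levels were within the reach of a count of 0 in both genotypes. Tmem38a, the TRIC-A potassium channel of the sarcoplasmic reticulum, had 33.5, 391.8 and 388 CPM against 22.6, 227 and 288 CPM (0.60 ± 0.09, adjusted p = 0.0171). The calls held in 7, 6 and 4 of the 9 fits. Casq1, calsequestrin itself, had 0.148, 46.6 and 186 CPM against 0.440, 25.4 and 117 CPM and missed the threshold (0.73 ± 0.17, adjusted p = 0.0673).

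Among 18 muscle energy genes, 16 were positive and 2 rose (median 0.25). Of all genes tested, 6691 of 12752 were positive, 0.894% rose and 1.69% fell. Ckm, muscle creatine kinase, had 13.3, 410 and 352 CPM against 4.55, 217 and 256 CPM (0.84 ± 0.18, adjusted p = 0.0459, held in 2 fits), with 15.5% of its exon bases shared with an overlapping gene. Pgam2, the muscle phosphoglycerate mutase, had 4.45, 140 and 155 CPM against 2.20, 72.7 and 105 CPM (0.79 ± 0.12, adjusted p = 0.0178, held in 5 fits). Ppp1r3a, which targets protein phosphatase 1 to muscle glycogen, and Abcc9, a subunit of ATP-sensitive potassium channels, were among the largest rises (2.76 ± 0.41 and 2.23 ± 0.32, adjusted p = 0.0164 and 0.0145, held in 6 and 5 fits). Abcc9 had 0.296, 12.6 and 26.7 CPM against 0.293, 2.18 and 5.75 CPM. Both day 0 levels were within the reach of a count of 0, so no difference could be seen there. Dystrophin and integrin complex genes were mixed, with 2 risen and 1 fallen of 20 and a median of 0.01. Dmd, dystrophin, had 0.148, 4.49 and 34.0 CPM against 0, 0.504 and 5.01 CPM (2.86 ± 0.46, adjusted p = 0.0199, held in 4 of the 9 fits, up to 0.193). At day 0 both levels of Dmd were within the reach of a count of 0, and its control at day 3 was barely above it. Sntb1, a syntrophin that binds dystrophin, rose by 0.43 ± 0.08 (adjusted p = 0.0389, held in 1 fit). Rbfox1, a splicing factor of muscle, had 0.593, 19.1 and 30.4 CPM against 0, 6.88 and 16.3 CPM (1.21 ± 0.25, adjusted p = 0.0422, held in 1 fit). Of the 14 myoblast fusion genes and 16 genes of the neuromuscular synapse none passed, with medians of 0.21 and 0.17. Within-day medians were 0.24, 0.01 and 0.04 for fusion genes and 0.32, 0.16 and 0.01 for synapse genes. At day 0, 13 of 14 and 13 of 16 were higher.

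The extracellular matrix lists held both rises and falls, beside 0.894% risen and 1.69% fallen over all genes. Of 23 collagen genes, 4 rose and 2 fell (median 0.19), and of 37 proteoglycans and other matrix proteins, 1 rose and 3 fell (median -0.05). Col1a1, the main chain of type I collagen, had 1634, 3451 and 5408 CPM in the Cry1 knockdown and 947, 2170 and 3103 CPM in the control. It was higher within each day by nearly the same ratio (0.79, 0.67 and 0.80) and rose by 0.75 ± 0.14 (adjusted p = 0.0327). Its partner chain Col1a2 had 2495, 3416 and 4549 CPM against 2007, 2605 and 3339 CPM and did not pass (0.38 ± 0.09, adjusted p = 0.0672). Col11a1, a chain that nucleates collagen fibrils, had 5.48, 8.65 and 27.2 CPM against 0.880, 1.01 and 9.83 CPM (2.05 ± 0.35, adjusted p = 0.0233). Col14a1, a fibril-associated collagen, and Col25a1, a transmembrane collagen of muscle, rose by 1.54 ± 0.25 and 1.53 ± 0.23 (adjusted p = 0.0203 and 0.0167). Of these 4 rises, Col1a1 held in 2 of the 9 fits, Col11a1 and Col14a1 in 4 and Col25a1 in 5.

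The falls included Col6a3, a chain of the collagen VI that surrounds muscle fibres, with 261, 745 and 1116 CPM against 632, 1780 and 2047 CPM (-1.14 ± 0.17, adjusted p = 0.0164). Col4a5, a basement membrane collagen, fell by a smaller amount (-0.47 ± 0.08, adjusted p = 0.0291). Dcn, decorin, a small proteoglycan that binds collagen fibrils and TGF-beta, had 9.34, 164 and 321 CPM against 20.1, 433 and 815 CPM (-1.31 ± 0.13, adjusted p = 0.00479). Aspn, asporin, a related small proteoglycan, had 1.04, 4.99 and 13.3 CPM against 6.01, 24.5 and 84.9 CPM (-2.48 ± 0.29, adjusted p = 0.00805). Levels of both grew over the days in each genotype, and the knockdown was lower at each. Thbs2, thrombospondin 2, had 278, 411 and 699 CPM against 452, 826 and 1571 CPM (-0.97 ± 0.14, adjusted p = 0.0134). Dpt, dermatopontin, had 0.445, 18.3 and 39.6 CPM against 2.49, 66.7 and 121 CPM (-1.75 ± 0.17, adjusted p = 0.00479), and Cilp, a matrix protein of cartilage and heart, had 1.93, 75.2 and 208 CPM against 2.20, 274 and 833 CPM (-1.84 ± 0.37, adjusted p = 0.0413).

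Lum, lumican, another small proteoglycan, had 0, 1.996 and 5.13 CPM against 0, 5.37 and 14.1 CPM and did not pass (-1.41 ± 0.36, adjusted p = 0.0774). Dcn and Dpt held in each of the 9 fits, Aspn in 7, Thbs2 in 5, Col6a3 in 4, Col4a5 in 3 and Cilp in 2, with adjusted p up to 0.231 for Cilp. In the Cry2 knockdown, Aspn had 3.23, 7.83 and 12.1 CPM and Cilp 1.29, 251.3 and 223 CPM, and the direct difference of the Cry1 knockdown from it did not pass for either (adjusted p = 0.461 and 0.170). Dcn had 28.3, 495 and 705 CPM there and differed (-1.43 ± 0.13, adjusted p = 0.00143). Levels of Dpt there were 0.808, 42.6 and 54.5 CPM, between those of the Cry1 knockdown and the control at each day. Dpt is also 1 of the 10 tendon and fibroblast markers. Of those, 6 were tested, 2 had a positive and 4 a negative fold change, and only Dpt passed. Their summed level was 274, 542 and 477 CPM in the Cry1 knockdown and 309, 719 and 563 CPM in the control, lower in the knockdown at each day, as were the matrix genes that fell. Tcf21 and Thy1 were at 0 in all 6 libraries, and the part of these cells in the matrix changes was not tested.

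Growth factor lists had medians near 0 with a few calls each, beside 0.894% risen and 1.69% fallen over all genes. Of 19 genes of the insulin-like growth factor axis, 3 fell and none rose (median 0.01). Igf1, the growth factor of differentiating muscle, had 2.96, 11.1 and 18.2 CPM in the Cry1 knockdown and 6.01, 39.96 and 79.7 CPM in the control. Its within-day ratios were -0.98, -1.83 and -2.12, with a fitted fall of -1.85 ± 0.22 (adjusted p = 0.00806, held in 7 of the 9 fits, up to 0.0706). Igfbp6, a binding protein with preference for IGF2, and Igf2bp2, an RNA-binding protein of the Igf2 transcript, fell by -0.52 ± 0.11 and -0.48 ± 0.10 (adjusted p = 0.0413 and 0.0459), each held in 2 fits. Igfbp2, an abundant binding protein, had 939, 168 and 80.8 CPM against 1151, 646 and 241 CPM without passing (-1.21 ± 0.29, adjusted p = 0.0674).

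In the TGF-beta and BMP list, 1 of 29 rose and 2 fell (median -0.02). The shares over all genes, for this and the next lists, were 0.894% risen and 1.69% fallen. Gdf11, a ligand close to myostatin, rose by 0.42 ± 0.08 (adjusted p = 0.0309). Tgfbr3, the co-receptor betaglycan, had 8.74, 7.82 and 15.6 CPM against 22.9, 14.6 and 25.8 CPM (-0.99 ± 0.18, adjusted p = 0.0330), and Ltbp3, which stores latent TGF-beta, fell by -0.38 ± 0.07 (adjusted p = 0.0301). These calls held in 1, 3 and 2 fits. Of 21 Wnt genes, only Wif1 passed, and of 37 genes for FGF, EGF and PDGF ligands and receptors, Fgf13 and Pdgfb rose. Pdgfb had 10.8, 24.8 and 14.5 CPM against 3.96, 13.9 and 7.23 CPM (1.06 ± 0.17, adjusted p = 0.0203, held in 3 fits), while Pdgfd, at -0.64 ± 0.14, lay at the threshold (adjusted p = 0.0506). Peg10, an imprinted gene derived from a retrotransposon, was the 1 riser of 12 imprinted genes and noncoding RNAs. It had 131, 56.0 and 35.0 CPM against 77.7, 19.5 and 18.0 CPM (1.05 ± 0.14, adjusted p = 0.0130), and this call held in 8 fits.

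Most chemokine, cytokine and mediator genes had negative differences. Of 24 measured, 6 were positive, 2 fell and none rose, with a median of -0.34 and within-day medians of -0.33, -0.33 and -0.28. Over all genes 6691 of 12752 were positive and 1.69% fell. Hdc, which makes histamine, had 1.19, 2.49 and 3.36 CPM against 3.52, 13.4 and 10.2 CPM (-1.91 ± 0.24, adjusted p = 0.00916, held in 8 of the 9 fits). Ptgs1, cyclooxygenase 1, had 155, 110 and 165 CPM against 301, 259 and 239 CPM (-0.91 ± 0.17, adjusted p = 0.0355, held in 3). For each gene the knockdown libraries lay below all control libraries. Il33, an alarmin of the interleukin 1 family, had 29.0, 21.6 and 37.5 CPM against 52.95, 47.5 and 49.9 CPM (-0.80 ± 0.17, adjusted p = 0.0501), and Ccl7, a monocyte chemokine, 5.78, 3.33 and 5.48 CPM against 11.4, 7.56 and 11.3 CPM (-1.05 ± 0.24, adjusted p = 0.0582). Neither passed.

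Most cholesterol genes had positive differences. Of 23 cholesterol synthesis genes and their regulators, 22 had a positive fold change and 1 rose, beside 6691 of 12752 and 0.894% over all genes, with a median of 0.36. The median was below 0 at day 0 and above it later, with within-day medians of -0.14, 0.43 and 0.68 and 8 and 22 genes higher at day 0 and day 3. No gene passed the test of change between day 0 and the later days described below. Lss, lanosterol synthase, had 54.1, 106 and 55.5 CPM against 55.7, 54.4 and 27.8 CPM and did not pass (0.64 ± 0.21, adjusted p = 0.143).

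Of 25 fatty acid genes, 1 rose and 3 fell (median -0.02), beside 0.894% risen and 1.69% fallen over all genes. Cd36, a fatty acid transporter, had 1.48, 56.9 and 97.6 CPM against 0, 15.95 and 56.5 CPM (1.34 ± 0.27, adjusted p = 0.0409). Scd1, the desaturase that makes monounsaturated fat, had 427, 1252 and 1098 CPM against 800, 2110 and 1410 CPM (-0.67 ± 0.13, adjusted p = 0.0381). Cpt1a, which admits fatty acids to mitochondria, had 61.2, 36.1 and 53.2 CPM against 88.2, 56.6 and 110 CPM (-0.76 ± 0.16, adjusted p = 0.0496), and Acadm, the medium-chain dehydrogenase of beta oxidation, had 54.1, 66.9 and 55.5 CPM against 96.4, 93.9 and 75.4 CPM (-0.59 ± 0.10, adjusted p = 0.0199). Among these 4 genes, only in Acadm did the groups not overlap across days. The calls held in 1, 2, 2 and 4 of the 9 fits.

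Several pathways showed no call. Among 30 G1 and S phase genes, 24 mitosis genes, 34 ribosomal protein genes, 31 nuclear genes of oxidative phosphorylation, 22 glycolysis and hypoxia genes, 22 immediate early genes, 18 interferon genes and 24 amino acid and ER stress genes none passed. Over all genes tested 2.59% were called, so a list of this size without a call is near that share. The fitted medians ran from -0.12 in the stress list to 0.06 in the ribosomal list. The stress list had within-day medians of 0.00, -0.64 and 0.26. In other lists too, days differed behind a fitted median near 0, without a test. Glycolysis and hypoxia had -0.27, 0.04 and 0.16, with 2, 12 and 17 of 22 genes higher. Ribosomal genes had -0.05, 0.14 and 0.15, with 8, 27 and 28 of 34 higher. Oxidative phosphorylation had -0.06, 0.08 and 0.11, with 10, 25 and 26 of 31 higher. Of 21 p53 targets 1 rose (Aen, an exonuclease, 0.47 ± 0.09, adjusted p = 0.0330, held in 1 fit). A list without a call is not shown to be unchanged, since the calls depend on the agreement of 3 days.

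Genes that rise with differentiation held a large share of the rises. The class was set in the Cry2 knockdown libraries, which are on neither side of the comparison, as a change of at least 1 in log2 CPM from day 0 to the mean of days 3 and 5. The 1400 genes that rose there were 11.0% of those tested and held 48.2% of the risen genes (55 of 114) and 12.0% of the fallen (26 of 216). Of this class 3.93% rose and 1.86% fell, beside the background of 0.894% and 1.69%. The 1218 genes that decline with differentiation had 7 risen and 32 fallen, 0.575% and 2.63% of the class. With the class limit at a log2 of 2, 43 of 633 rising genes rose and 6 fell. These libraries also enter the estimate of the spread, and genes that change with time have different spreads, so the shares are descriptions.

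**Figure D5:**
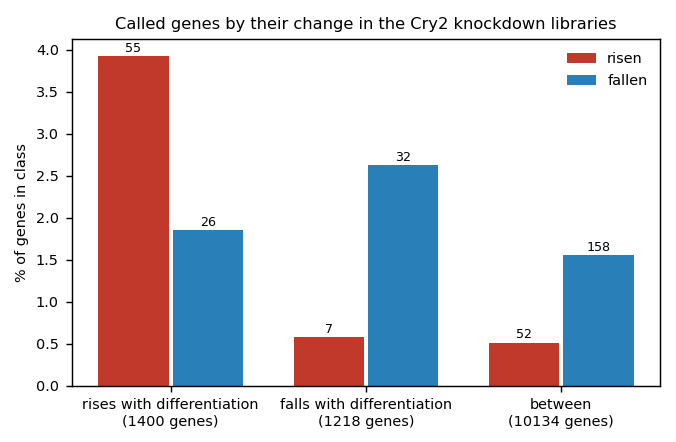
Percent of genes in each class (vertical axis, from 0) that rose or fell in the Cry1 knockdown, with the number of genes above each bar. Classes are by the change of at least 1 in log2 CPM from day 0 to days 3 and 5 in the Cry2 knockdown libraries, and 3.93% of the genes that rise with differentiation rose, beside 0.513% of those between.

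Whether the Cry1 knockdown difference changed between day 0 and days 3 and 5 was tested by an interaction of genotype and stage over 13608 genes. No gene passed in edgeR (0%), the lowest adjusted p was 0.103, and 670 genes had an unadjusted p under 0.05. The Wald test of DESeq2 called 15. With 2 residual degrees of freedom the test depends strongly on single libraries, with 126 and 109 calls without the day 3 and day 5 control. Of the 5 genes of lowest p, 4 are unnamed gene models or pseudogenes and the other was Phb, prohibitin, with 34.5, 137 and 83.1 CPM against 107, 95.5 and 76.4 CPM. As 41.1% of the 50-base words of Phb recur in other genes, its counts may be shared with pseudogenes. The next genes, named after their values were seen, were Rbm24, a splicing regulator of muscle, and Myog, myogenin, the MyoD family factor of terminal differentiation. Rbm24 had 38.1, 180 and 237 CPM against 5.87, 113 and 167 CPM, and Myog had 180, 801 and 999.5 CPM against 58.7, 682 and 958.8 CPM. Both were well above the control at day 0 and closer to it later, by -2.11 ± 0.24 and -1.47 ± 0.18 between the stages, without passing (adjusted p = 0.111 and 0.131). The fitted difference of Myog over the 3 days did not pass either (0.67 ± 0.32, adjusted p = 0.295).

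The called genes had longer spans at the median. The median genomic span was 25022 bases for risen and 37736 bases for fallen genes, beside 21928 bases for all tested. Protein-coding genes made up 111 of 114 risen and 213 of 216 fallen genes, beside 90.5% of those tested. Within 20000 bases of each other, 5 pairs of called genes with names were found, chosen by position and named after their values were seen, and each pair shared a direction. Besides Tmem176a and Tmem176b, Per2 lies 1943 bases from Hes6, a bHLH cofactor gene that promotes myogenesis, which had 72.5, 248 and 155 CPM against 57.8, 137 and 117 CPM (0.53 ± 0.11, adjusted p = 0.0445, held in none of the 9 fits). Tceal5 and Tceal7 on the X chromosome rose by 1.15 ± 0.23 and 1.76 ± 0.34, the latter with 18.3% of its exon bases shared with an overlapping gene. Aldh3a1 and Aldh3a2, which oxidise aldehydes, fell by -0.72 ± 0.15 and -0.55 ± 0.10, and Mr1 and Stx6 by -0.44 ± 0.09 and -0.86 ± 0.10. Adjusted p was 0.0391, 0.0368, 0.0457, 0.0246, 0.0482 and 0.00785 in that order. These calls held in 1, 3, 0, 4, 0 and 8 of the 9 fits.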

How the data were processed

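Per the labels, polyA RNA of C2C12 cells was extracted with an RNeasy kit and made into TruSeq v2 libraries, a kit that does not keep strand, and sequenced on a HiSeq2500. Per the submitters' processing notes, CASAVA 1.8, HISAT2 2.0.2, featureCounts 1.4.6 of Subread and the mm10 build were used. The authors deposited raw counts per Ensembl gene for 47728 genes, and the counting options are not given in the sources used here. Names and positions came from GENCODE M21 (GRCm38), which held 47223 of these genes. Groups were taken from the genotype label and the day from the library title.

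The counts were scaled by TMM and tested with edgeR 4.0.16 (R 4.3.3, limma 3.58.1) with genotype and day as additive terms for the 9 libraries, after filterByExpr by group, leaving 4 residual degrees of freedom. The change with differentiation used genotype by stage with a shared day 5 term. Ratios within a day were taken on log2 CPM with a prior count of 1. The scripts were tested on simulated counts with 200 changed genes. They called 92.5% of genes with a true fold of 2, 62.5% at a fold of 0.5 and 42.5% at 1.5. Unchanged genes made up 5.92% of those calls. The changed genes were drawn from those with a mean above 2 CPM. Each had the same fold at every day and a spread set by abundance alone. These rates may therefore not hold for rarer genes or for folds that vary between days. Alternatives were RLE factors, other filters, DESeq2 1.42.0, the 6 libraries alone, no day term, no mitochondrially encoded genes, and each library or day left out. Genes sharing sequence were sought as 50-base words of the longest transcript found in other genes, and overlaps as shared exon bases.

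The comparison, its 43 gene lists and the rules were chosen with earlier results of these data known. Named genes were Cry1, Cry2, Ccnd1, Tmem176a, Tmem176b and Bclaf1, the 15 largest rises and falls with a mean of at least 2 CPM and one direction at the 3 days, the 10 risen and 10 fallen of highest CPM, every list member that passed with up to 4 that did not, by lowest p, and the 5 lowest p in the test of change with differentiation. Unnamed gene models are counted only. Not every gene of the rule is described, and a few that it selects are not reported here. No library was left out of the main results.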

Additional observations from a re-analysis of the deposited data

How the results depend on the processing

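The counts of risen and fallen genes, 114 and 216, were 115 and 199 with RLE factors, 116 and 224 with a filter of 1 CPM in 3 libraries, 112 and 189 with DESeq2 (67 and 151 of these shared with the 114 and 216) and 118 and 222 without mitochondrially encoded genes. They were 390 and 529 with no filter, 59 and 127 with only the 6 libraries compared, and 0 and 0 without the day term (348 genes at an unadjusted p under 0.05). Leaving out 1 library gave 10 to 137 risen and 17 to 229 fallen. Without day 0, 3 or 5 the counts were 21 and 48, 5 and 11, and 19 and 26. The test of change with differentiation, at 0 calls, gave 72 with no filter, 15 with DESeq2, 2 with only the 6 libraries and 0 to 126 without 1 library. It could not be fitted without a day 0 library. The fall of Cry1 kept its direction throughout and lost its call without the day term (-1.22, adjusted p = 1.0), without day 3 (-1.24, 0.156), without day 5 (-1.29, 0.110) and without any 1 of the 6 libraries, with fitted values of -1.36 to -1.0 over the fits without 1 library. The medians of gene lists over members above a mean of 3 counts at day 0 were added after seeing the data. With the differentiation class set at a log2 of 2, the fallen among rising genes were 6 in place of 26, and the risen and fallen among declining genes 3 and 9 in place of 7 and 32, as the classes hold fewer genes. Of 81 named genes that passed, 10 passed in each fit without 1 library. Of 1529 comparisons of these genes with an alternative, 820 were the same, none reversed and the rest were weaker. All 81 were weaker without the day term. Without 1 library 399 comparisons were weaker and 330 the same, and without 1 day 187 were weaker and 49 the same. Ccnd1, which did not pass, turned positive without the day 0 Cry1 knockdown library (0.036), the day 3 control (0.23) or day 3 (0.068), and ran from -0.30 to 0.23 without 1 library. The cause of these changes was not tested. Day pairs the libraries across genotypes and is a term of the model, and the fit without the day term is given above. No paired analysis by replicate number could be added, as the labels give none. With 1 library per genotype and day at this depth, genes near 0.5 CPM cannot be told from 0.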

Other observations

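Further genes are given here as values and were named after their values were seen. They were picked from the called genes, so they stand for no pathway. Mapk3, which encodes ERK1, had 89.5, 78.2 and 70.8 CPM in the Cry1 knockdown and 127, 104 and 102 CPM in the control (-0.48 ± 0.08, adjusted p = 0.0225). Rras2, a Ras-related GTPase, had 152, 126 and 141 CPM against 198, 198 and 193 CPM (-0.49 ± 0.08, adjusted p = 0.0203), and Mras had 27.0, 16.5 and 17.2 CPM against 36.8, 25.5 and 27.8 CPM (-0.58 ± 0.10, adjusted p = 0.0284). The phosphatase SHP2, from Ptpn11, fell by -0.35 ± 0.07 (adjusted p = 0.0389), Ralgds, an exchange factor for Ral that is a Ras effector, by -0.82 ± 0.15 (adjusted p = 0.0331), and Rasa4, a Ras GTPase-activating protein, by -0.78 ± 0.12 (adjusted p = 0.0182). These 6 calls held in 1 to 4 of the 9 fits without a library.

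Nop2, an rRNA methyltransferase, had 109, 78.0 and 80.1 CPM against 84.3, 53.1 and 55.1 CPM (0.48 ± 0.09, adjusted p = 0.0352). Polr1b, a subunit of RNA polymerase I, had 37.3, 36.1 and 40.7 CPM against 28.2, 23.5 and 25.8 CPM (0.56 ± 0.10, adjusted p = 0.0331). Nip7, Rbm19, Wdr18, Wdr46, Nol10 and Pop1 rose by 0.52, 0.50, 0.51, 0.49, 0.40 and 0.72, with adjusted p of 0.0235, 0.0391, 0.0180, 0.0350, 0.0446 and 0.0331. Each of the 8 held in at most 3 of the 9 fits.

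Fermt2, kindlin 2, which activates integrins, had 135, 163 and 136 CPM against 207, 220 and 213 CPM (-0.56 ± 0.07, adjusted p = 0.0115, held in 7 fits). Lims1, the adaptor PINCH1, had 170, 200 and 169 CPM against 228, 258 and 217 CPM (-0.38 ± 0.07, adjusted p = 0.0293, held in 2), and Nedd9, a docking protein of focal adhesions, had 55.6, 49.2 and 46.7 CPM against 120, 76.2 and 74.7 CPM (-0.81 ± 0.14, adjusted p = 0.0274, held in 4). Rcan2, an inhibitor of calcineurin, and Ppp3r1, the regulatory subunit of calcineurin, fell by -0.85 ± 0.10 and -0.59 ± 0.10 (adjusted p = 0.00785 and 0.0233, held in 8 and 3 fits). Eya4, a transcriptional coactivator and phosphatase of muscle, had 47.4, 49.6 and 80.3 CPM against 24.6, 24.5 and 52.1 CPM (0.85 ± 0.10, adjusted p = 0.00806, held in 8 fits).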
